A study of Mus musculus with 12 samples.

Results

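The 35 genes described here are the mouse orthologs of genes that are mutated in human hereditary ataxias, from the ataxins and the P/Q-type calcium channel to mitochondrial, DNA repair and secretory pathway proteins. They were chosen by name, and each symbol matched 1 gene among the 55536 genes counted. RNA-Seq was performed on 12 bulk tissue libraries from 1-month-old mice, 3 each of WT cerebellum, *Snx14*-KO cerebellum, WT cortex (the cerebral cortex) and *Snx14*-KO cortex. The *Snx14*-KO mice were homozygous for a frameshift deletion that Cas9 injection had placed in a *Snx14* coding exon on the C57BL/6J background and was present in all tissues, so effects in the cerebellum cannot be assigned to a cell type, and all of them carried the same single allele. The sex of each mouse was not in the labels. The cerebellum and cortex libraries of a genotype carried the same 3 mouse numbers. Gene counts per library ranged from 16672589 to 19887427.

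Hereditary ataxias are disorders of gait and coordination in which the cerebellum or the tracts that serve it fail. Their genes act in nearly every compartment of the cell, yet Purkinje cells, the neurons that carry all output of the cerebellar cortex, are lost in many of them. *Snx14* itself, a sorting nexin at contacts between the endoplasmic reticulum and lipid droplets, is the ortholog of a gene whose loss causes a recessive childhood ataxia.

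In several human ataxias a CAG repeat inside the coding sequence grows and lengthens a glutamine tract. The longest run of CAG or CAA codons in the mouse orthologs was therefore read from the GENCODE transcripts first, without alignment to the human repeats. Of the 6 members with such a human ortholog (*Atxn1*, *Atxn2*, *Atxn3*, *Atxn7*, *Cacna1a* and *Tbp*), 3 held an in-frame run of more than 3 CAG or CAA codons, both of which encode glutamine, in their longest coding sequence, and these 3 runs are printed below with 12 coding bases on each side in lower case and the run in capitals, each 5′ to 3′ on the coding strand.
Tbp: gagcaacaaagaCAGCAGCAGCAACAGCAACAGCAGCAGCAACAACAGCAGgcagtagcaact
Atxn3: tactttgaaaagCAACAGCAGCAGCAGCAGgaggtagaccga
Atxn7: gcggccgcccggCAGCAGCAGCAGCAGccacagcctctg
The *Tbp* stretch lay in exon 4 at chr17:15504379-15504441 (GRCm38, plus strand) and its run had 13 glutamine codons, 9 CAG and 4 CAA, at codons 58 to 70. A run at least this long was present in 0.241% of the 21534 coding genes scanned. The *Atxn3* stretch crossed the junction of exons 9 and 10 at chr12:101926551-101932978 on the minus strand and held 6 glutamine codons, a length reached by 0.859% of genes. The *Atxn7* stretch, in exon 2 at chr14:14013144-14013182 on the plus strand, held 5 CAG codons, a length reached by 1.17% of genes. In *Atxn1*, *Atxn2* and *Cacna1a* the longest run was 3 codons, first met at codons 444 to 446, 1129 to 1131 and 384 to 386. That length was reached by 8.95% of genes, and none of these members held a longer run elsewhere in that coding sequence. Whether any of the runs lies at the site of the human repeat was not tested. Read counts per gene carry no information on repeat length.

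The targeted gene separated the genotypes in every library. *Snx14* stood at 63.9, 63.6 and 67.01 CPM (read counts scaled to a common library size with TMM factors) in WT cerebellum and at 10.4, 10.9 and 11.2 CPM in *Snx14*-KO cerebellum, a log2 fold change of -2.57 ± 0.079 (SE, n = 3 per group, edgeR adjusted p = 1.69e-06). In cortex it went from 53.6, 55.1 and 59.8 CPM to 8.503, 7.95 and 7.69 CPM, -2.80 ± 0.10 on the log2 scale (edgeR adjusted p = 3.19e-08). Tissue markers followed the tissue labels: all 7 Purkinje cell and all 6 granule cell markers were higher in WT cerebellum than in WT cortex, and all 6 cortical excitatory neuron markers were lower. The summed level of 4 choroid plexus markers was uneven in cerebellum (56.6 to 7193 CPM in WT and 929 to 3111 CPM in *Snx14*-KO), and the WT cerebellum library with the highest sum was replicate 3. None of the listed cell type markers was at 0 throughout a group.

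All 35 members were expressed well enough to be tested in every comparison. Their levels, given as CPM per kb of exon so that genes of different length can be set side by side, ran from 1.69 to 345 in WT cerebellum with a median of 7.84, and from 1.701 to 320.2 in WT cortex with a median of 8.21. *Eef2*, the translation elongation factor that moves the ribosome along the message, was the highest member in all 4 groups (345 ± 22.9 CPM per kb in WT cerebellum, SD, n = 3), higher than 99.6% of the genes tested in the fit of all libraries. Its libraries read 370.2, 326 and 338 CPM per kb in WT cerebellum, 357, 338 and 334 in *Snx14*-KO cerebellum, 315, 329 and 316 in WT cortex and 333, 293 and 342 in *Snx14*-KO cortex, and the groups overlapped in both tissue and genotype.

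*Atxn10*, whose human ortholog carries an intronic repeat expansion, followed with 89.7, 89.3 and 84.7 CPM per kb in WT cerebellum, 94.3, 90.7 and 97.5 in *Snx14*-KO cerebellum, 111, 109.7 and 104 in WT cortex and 112, 115 and 118 in *Snx14*-KO cortex. *Stub1*, a ubiquitin ligase that works with chaperones, came next with 55.7 ± 3.45 CPM per kb in WT cerebellum and 51.8 ± 0.574 in WT cortex (SD, n = 3). Its libraries read 59.6, 54.1 and 53.3 CPM per kb in WT cerebellum, 55.7, 58.4 and 48.7 in *Snx14*-KO cerebellum, 51.3, 51.7 and 52.4 in WT cortex and 57.4, 52.7 and 50.4 in *Snx14*-KO cortex. However, 42.3% of the *Stub1* exon bases also belong to *Jmjd8* and a microRNA gene, and read pairs there were counted for each gene, so its level may include theirs.

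At the low end stood *Atm*, the kinase that signals DNA breaks, with 1.56, 1.75 and 1.75 CPM per kb in WT cerebellum, 1.44, 1.38 and 1.65 in *Snx14*-KO cerebellum, 1.69, 1.59 and 1.82 in WT cortex and 1.54, 2.07 and 1.395 in *Snx14*-KO cortex. In WT cerebellum it still exceeded 30.9% of the genes tested. *Mre11a*, a nuclease of the same break response, read 2.08, 2.38 and 2.26 CPM per kb in WT cerebellum, 2.39, 2.000 and 2.46 in *Snx14*-KO cerebellum, 1.86, 1.89 and 2.08 in WT cortex and 2.004, 1.89 and 1.76 in *Snx14*-KO cortex. *Ccdc88c*, a regulator of Wnt signalling, read 1.88, 1.79 and 1.93, 1.92, 1.58 and 1.73, 2.74, 2.39 and 2.58 and 2.07, 2.298 and 2.17 CPM per kb in the same order of groups. *Atm*, *Ccdc88c* and *Mre11a* were the lowest members in WT cerebellum, whereas in WT cortex *Wwox*, *Ttpa*, *Atxn7* and *Tbp* also ranked below *Ccdc88c*. The order of *Mre11a* and *Ccdc88c* depended on the tissue too: every *Mre11a* library lay above every *Ccdc88c* library in WT cerebellum and below it in WT cortex.

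**Figure D1:**
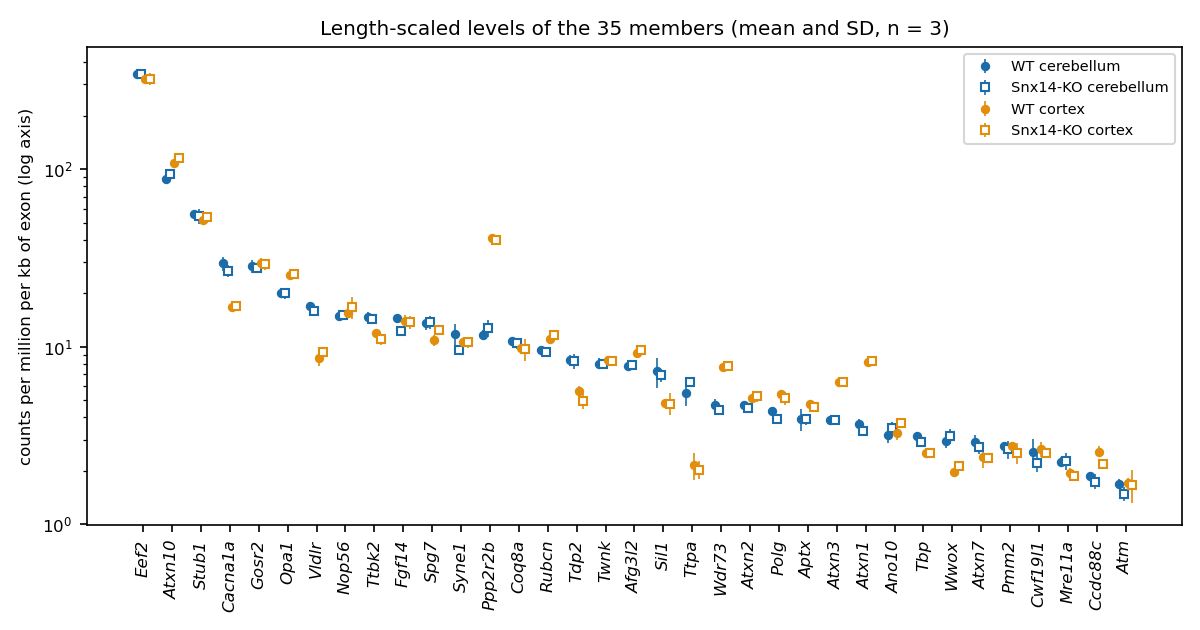
Length-scaled level of each of the 35 members in CPM per kb of exon on a log axis, with points for the mean and bars for the SD of 3 libraries in each of the 4 groups, ordered by level in WT cerebellum. *Eef2* lies alone at the top (344.7 CPM per kb in WT cerebellum) and *Atm* lowest (1.69), while the 4 groups of a gene mostly lie on top of each other.

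To describe which members differ between the regions the study set side by side, WT cerebellum was compared with WT cortex. Of the 35 members, 10 differed (adjusted p below 0.05 with a log2 fold change beyond 0.50 in either direction), 6 higher and 4 lower in cerebellum. That was 28.6% of the members, against 40.4% of all 18543 genes tested. The 6 higher members were 17.1% of the list against 19% of all genes, and the 4 lower members 11.4% against 21.4%. Higher in cerebellum were *Ttpa*, *Vldlr*, *Cacna1a*, *Sil1*, *Wwox* and *Tdp2*, and lower were *Ppp2r2b*, *Atxn1*, *Atxn3* and *Wdr73*. The median log2 fold change over the members was -0.0069, beside 0.023 over all genes, and the median absolute value was 0.28 beside 0.44. With no limit on the fold change, 9 members were higher and 11 lower, 20 of 35 against 57.4% of all genes. DESeq2 also called 10 members (38.9% of its genes), as did edgeR with the mouse as a block (40.2%). In bulk tissue, fewer cells of a type and less RNA per cell cannot be told apart, and the regions differ in their mix of cells: Purkinje cell markers summed to 10182 to 11230.3 CPM in WT cerebellum and 904 to 1025 CPM in WT cortex, granule cell markers to 2595 to 3004 and 150.2 to 159.5 CPM, and cortical excitatory neuron markers to 302 to 399 and 1706 to 1888 CPM. Bergmann glia and astrocyte markers summed to 3398 to 3804 CPM in WT cerebellum and 1088 to 1252 CPM in WT cortex. Oligodendrocyte markers summed to 10775 to 14020 and 7516 to 7775 CPM, and microglia markers to 106 to 131 and 287 to 330 CPM. Meningeal fibroblast markers summed to 153 to 322 and 80.5 to 127 CPM. The part of this mix of cells in the differences below was not tested. Without WT cerebellum replicate 3, the library with the highest choroid plexus sum, 9 members were called, and without any other single library 10 or 11.

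**Figure D2:**
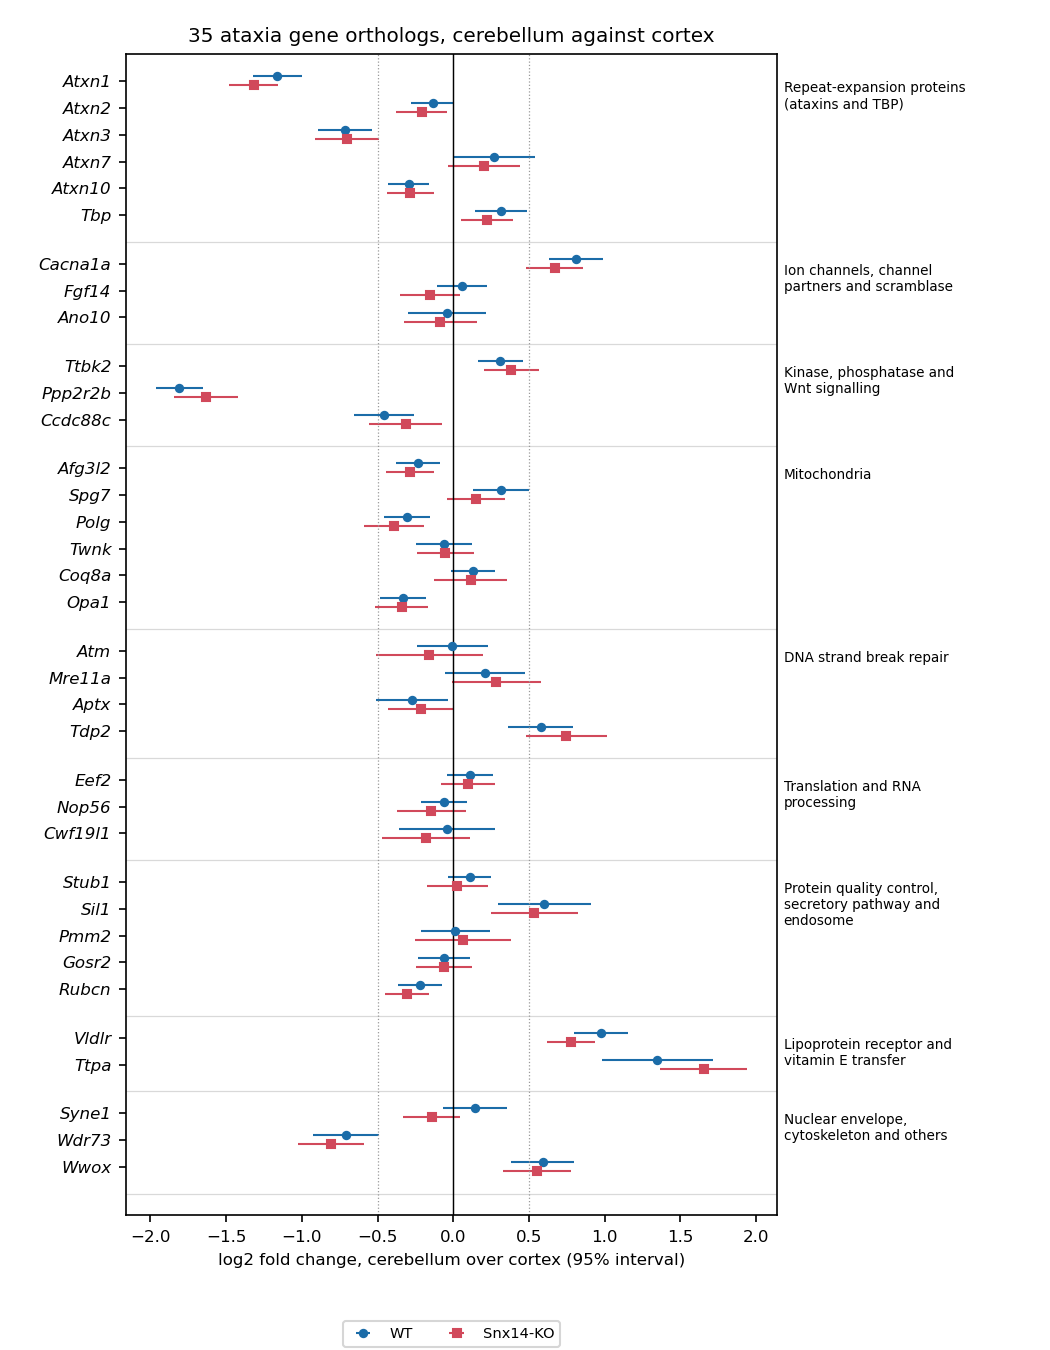
Log2 fold change of cerebellum over cortex for the 35 members, grouped by role, in WT (circles) and in *Snx14*-KO mice (squares), with 95% intervals and dotted lines at 0.50 to either side of 0. The 10 members that passed in WT lie beyond the dotted lines in both genotypes, from -1.81 (*Ppp2r2b*) to 1.35 (*Ttpa*) in WT.

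The lipoprotein receptor and the vitamin E carrier were both higher in cerebellum. *Ttpa* (ENSMUSG00000073988.13, chr4:20007938-20030785, plus strand), the carrier that hands alpha-tocopherol between membranes and whose loss causes ataxia with vitamin E deficiency, stood at 15.8, 20.5 and 20.8 CPM in WT cerebellum and 7.01, 9.02 and 6.49 CPM in WT cortex. Every cerebellum library lay above every cortex library, although replicate 1 of WT cerebellum was low. The difference was 1.35 ± 0.16 on the log2 scale (SE, edgeR adjusted p = 4.55e-05), a 2.55-fold higher count in cerebellum. In *Snx14*-KO mice it stood at 20.6, 22.6 and 23.5 CPM in cerebellum and 6.63, 8.01 and 6.62 CPM in cortex, 1.65 ± 0.13 on the log2 scale (edgeR adjusted p = 3.22e-06). *Vldlr* (ENSMUSG00000024924.14, chr19:27216484-27254231, plus strand), a receptor for reelin, the signal that positions migrating neurons, stood at 167, 180.4 and 167 CPM in WT cerebellum and 96.8, 84.2 and 80.7 CPM in WT cortex. The 2 groups were far apart, giving 0.98 ± 0.080 on the log2 scale (SE, edgeR adjusted p = 2.14e-06). *Snx14*-KO libraries read 159, 167 and 155 CPM in cerebellum and 93.3, 94.1 and 94.7 CPM in cortex, 0.78 ± 0.070 on the log2 scale (edgeR adjusted p = 9.03e-06).

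Of the channel group, *Cacna1a* was higher in cerebellum and its companions did not pass. *Cacna1a* (ENSMUSG00000034656.17, chr8:84388440-84640246, plus strand) encodes the pore of P/Q-type calcium channels, which drive transmitter release and Purkinje cell firing. Its libraries read 363, 344 and 302 CPM in WT cerebellum and 185, 185 and 207 CPM in WT cortex, with no overlap. The log2 fold change was 0.81 ± 0.081 (SE, edgeR adjusted p = 1.01e-05), or 1.75-fold. Among *Snx14*-KO libraries the values were 311, 325 and 281 CPM in cerebellum and 189.6, 207 and 183 CPM in cortex, a log2 fold change of 0.67 ± 0.084 (edgeR adjusted p = 9.21e-05). *Fgf14*, an intracellular partner of voltage-gated sodium channels, had a log2 fold change of 0.057 with a 95% interval of -0.11 to 0.22. *Ano10*, a lipid scramblase of the anoctamin family, had -0.044 with an interval of -0.30 to 0.21.

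Among the kinase, phosphatase and Wnt members was *Ppp2r2b*, with the largest absolute log2 fold change of the 35 in WT, whereas in *Snx14*-KO mice that of *Ttpa* (1.65) was slightly larger than its own. *Ppp2r2b* (ENSMUSG00000024500.19, chr18:42637432-43059471, minus strand), a brain regulatory subunit that targets a serine/threonine phosphatase to its substrates, stood at 48.5, 47.8 and 43.2 CPM in WT cerebellum and 164, 169 and 157 CPM in WT cortex. All cerebellum libraries were well below all cortex libraries. It was 3.503-fold lower in cerebellum, -1.81 ± 0.070 on the log2 scale (SE, edgeR adjusted p = 6.53e-09). The *Snx14*-KO libraries, at 53.5, 44.2 and 54.8 CPM in cerebellum and 158, 152 and 166 CPM in cortex, gave -1.63 ± 0.10 (edgeR adjusted p = 4.24e-07). Per kb of exon *Ppp2r2b* ranked above 92.5% of the genes tested in WT cortex and above 74.4% in WT cerebellum. *Ccdc88c* was lower in cerebellum by adjusted p alone, with a log2 fold change of -0.46 (interval -0.65 to -0.26, edgeR adjusted p = 0.00127), and without WT cortex replicate 2 it passed both limits. *Ttbk2*, a kinase needed to build primary cilia, was higher in cerebellum by adjusted p alone at 0.31 (edgeR adjusted p = 0.00246). Its exons share 29.9% of their bases with *Cdan1*, which had a log2 fold change of 0.38 between the regions, and the reads in the shared bases were counted for both.

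Among the ataxins and *Tbp*, 2 of 6 were called, *Atxn1* and *Atxn3*, beside the 40.4% of all genes. Other members whose human orthologs also carry repeat expansions, such as *Cacna1a*, *Ppp2r2b* and *Nop56*, are described with their own groups. *Atxn1* (ENSMUSG00000046876.16, chr13:45549755-45965008, minus strand), which binds transcriptional repressors, stood at 53.4, 46.8 and 52.6 CPM in WT cerebellum and 112, 111 and 119.6 CPM in WT cortex. The regions were far apart, and the log2 fold change was -1.16 ± 0.072 (SE, edgeR adjusted p = 2.43e-07). In *Snx14*-KO mice the values were 45.9, 49.2 and 44.5 CPM in cerebellum and 114, 119 and 116 CPM in cortex, -1.32 ± 0.072 on the log2 scale (edgeR adjusted p = 2.76e-07). *Atxn3* (ENSMUSG00000021189.11, chr12:101918901-101958246, minus strand), a deubiquitinase and one of the 3 members with a glutamine run printed above, read 20.01, 22.04 and 20.7 CPM in WT cerebellum and 33.3, 35.6 and 34.4 CPM in WT cortex. No library of one region reached the other, and the log2 fold change was -0.72 ± 0.081 (SE, edgeR adjusted p = 2.76e-05). *Snx14*-KO values of 21.3, 19.5 and 21.99 CPM in cerebellum and 32.3, 33.96 and 36.4 CPM in cortex gave -0.70 ± 0.10 (edgeR adjusted p = 1.65e-04).

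The remaining members of that group were closer between the regions. *Atxn10* was lower in cerebellum by adjusted p alone, with a log2 fold change of -0.29 (edgeR adjusted p = 0.00191). *Tbp*, the TATA-binding protein of the general transcription machinery and the member with the longest glutamine run, was higher by adjusted p alone at 0.31 (edgeR adjusted p = 0.00514). It shares 19.02% of its exon bases with *Pdcd2*, whose log2 fold change was 0.45. *Atxn2*, an RNA-binding protein of stress granules, had -0.14 (interval -0.28 to 0.0070), and *Atxn7*, a subunit of the SAGA chromatin complex, had 0.27 (interval 0.0030 to 0.54). Neither passed the test.

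None of the 6 mitochondrial members was called (40.4% of all genes were), and 4 of them differed by adjusted p alone, where 57.4% of all genes had an adjusted p below 0.05. *Opa1*, the GTPase that fuses inner membranes, was lower in cerebellum at -0.33, the mitochondrial DNA polymerase *Polg* at -0.31 and *Afg3l2*, a subunit of the inner membrane protease, at -0.23 (edgeR adjusted p = 0.00193, 0.00278 and 0.0111). *Spg7*, the partner of *Afg3l2* in that protease, was higher at 0.32 (edgeR adjusted p = 0.0081). The subunits of 1 protease thus had opposite signs, with libraries of 77.9, 80.4 and 73.99 CPM for *Afg3l2* and 58.7, 58.2 and 66.8 CPM for *Spg7* in WT cerebellum, against 86.7, 92.1 and 95.2 and 52.3, 50.2 and 45.4 CPM in WT cortex. The groups did not overlap for either gene. *Coq8a*, which acts in coenzyme Q synthesis, had 0.13 (interval -0.015 to 0.27) and the mitochondrial DNA helicase *Twnk* -0.063 (interval -0.25 to 0.12), and neither passed. In *Snx14*-KO mice *Opa1*, *Polg* and *Afg3l2* were again lower by adjusted p alone (-0.34, -0.39 and -0.29), while *Spg7* had 0.15 with an interval of -0.041 to 0.34.

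In the DNA repair group *Tdp2* was higher in cerebellum. *Tdp2* (ENSMUSG00000035958.3, chr13:24831679-24842153, plus strand), which frees DNA ends from trapped topoisomerase, stood at 26.2, 29.9 and 26.6 CPM in WT cerebellum and 17.8, 20.02 and 17.8 CPM in WT cortex. The regions did not overlap, and the log2 fold change was 0.58 ± 0.10 (SE, edgeR adjusted p = 4.85e-04). *Snx14*-KO libraries read 25.7, 30.3 and 25.8 CPM in cerebellum and 17.6, 14.4 and 16.9 CPM in cortex, 0.75 ± 0.12 on the log2 scale (edgeR adjusted p = 4.65e-04). *Aptx*, which clears failed ligation products from DNA ends, was lower by adjusted p alone at -0.28 (edgeR adjusted p = 0.0476) in WT and did not pass in *Snx14*-KO mice (-0.22, adjusted p = 0.0879). *Mre11a* had 0.21 (interval -0.057 to 0.48) and *Atm* -0.0069 (interval -0.24 to 0.23).

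Of the secretory and protein quality members, *Sil1* was called. *Sil1* (ENSMUSG00000024357.10, chr18:35266396-35499780, minus strand), the exchange factor that recharges the chaperone BiP in the endoplasmic reticulum, stood at 26.2, 19.7 and 28.9 CPM in WT cerebellum and 16.9, 15.6 and 16.96 CPM in WT cortex. The cerebellum libraries were spread out, but the lowest of them lay above the highest cortex library. The log2 fold change was 0.60 ± 0.14 (SE, edgeR adjusted p = 0.00333), and it was 0.48, under the limit of 0.50, without WT cerebellum replicate 3. In *Snx14*-KO mice, with 22.04, 26.02 and 23.2 CPM in cerebellum and 16.9, 18.5 and 13.9 CPM in cortex, it was 0.54 ± 0.13 (edgeR adjusted p = 0.00575), and it was 0.47 without *Snx14*-KO cerebellum replicate 2 and 0.43 without *Snx14*-KO cortex replicate 3. *Rubcn*, a brake on autophagosome and endosome maturation, was lower in cerebellum by adjusted p alone at -0.22 (edgeR adjusted p = 0.016). *Stub1*, the glycosylation enzyme *Pmm2* and the Golgi SNARE *Gosr2* had log2 fold changes of 0.11, 0.012 and -0.061 and did not pass.

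The last groups held 1 member called in each direction and 4 that did not pass, beside the 19% of all genes called higher and 21.4% called lower. *Wdr73* (ENSMUSG00000025722.16, chr7:80890723-80901269, minus strand), a WD repeat protein, stood at 16.4, 16.7 and 19.2 CPM in WT cerebellum and 28.8, 29.8 and 26.9 CPM in WT cortex. The cerebellum libraries were lower without overlap, at -0.71 ± 0.10 on the log2 scale (SE, edgeR adjusted p = 1.20e-04). The *Snx14*-KO libraries read 17.4, 16.2 and 15.7 CPM in cerebellum and 29.6, 27.5 and 29.4 CPM in cortex, -0.81 ± 0.10 on the log2 scale (edgeR adjusted p = 7.16e-05). *Wwox* (ENSMUSG00000004637.15, chr8:114439655-115352708, plus strand), a WW-domain oxidoreductase encoded across a long fragile locus, stood at 32.1, 30.8 and 27.1 CPM in WT cerebellum and 20.8, 19.6 and 19.5 CPM in WT cortex. Here the cerebellum was higher without overlap, at 0.59 ± 0.093 (SE, edgeR adjusted p = 3.05e-04). Its *Snx14*-KO libraries read 35.3, 29.2 and 31.04 CPM in cerebellum and 21.7, 21.5 and 22.3 CPM in cortex, 0.55 ± 0.10 (edgeR adjusted p = 0.00113), which became 0.47 without *Snx14*-KO cerebellum replicate 1. *Syne1*, a giant nuclear envelope protein, had 0.14 (interval -0.068 to 0.35). *Eef2*, the snoRNA-binding protein *Nop56* and *Cwf19l1* had 0.11, -0.061 and -0.041, none past the test.

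**Figure D3:**
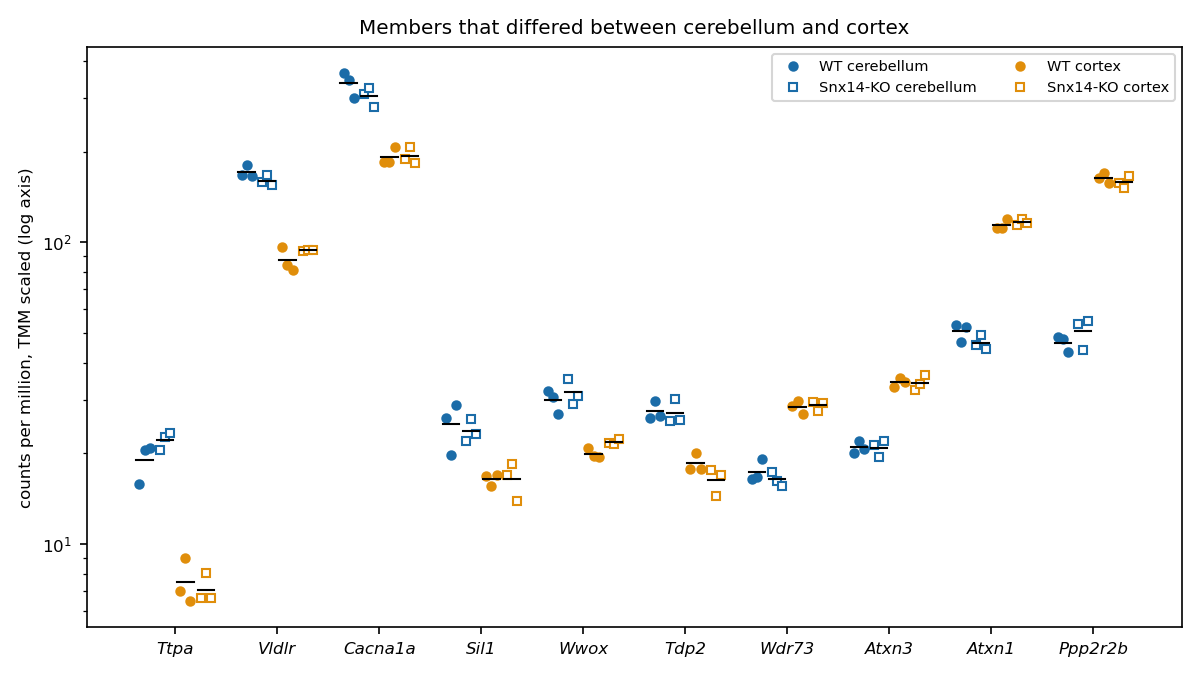
CPM on a log axis in each of the 12 libraries for the 10 members called between the regions, ordered by log2 fold change in WT. Each point is a library (filled, WT and open, *Snx14*-KO) and each black bar a group mean, and the cerebellum and cortex points of a genotype do not overlap for any of the 10 genes.

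The *Snx14*-KO libraries, none of which entered the WT comparison, repeated the pattern. All 10 members called in WT were called in *Snx14*-KO mice in the same direction, and no other member was, so 28.6% were called against 37.9% of the 18542 genes tested. The count was again 10 by DESeq2 (36.1% of all genes) and with the mouse as a block (37%), and 19 with no limit on the fold change (52.1%). With *Snx14*-KO cerebellum replicates 1 and 3 left out together, for their high levels of the interneuron gene *Sst*, 9 were called and *Wwox* had 0.42, in a fit with 1 cerebellum library that is assumed to vary like the 3 cortex libraries. Of the 35 members 33 kept the sign of the difference. The 2 that did not, *Fgf14* and *Syne1*, had intervals that included 0 in both genotypes. The log2 fold changes of a member differed between genotypes by a median of 0.080 and by at most 0.31. Libraries of the regions did not overlap for 23 members in WT (11 above and 12 below, against 64.4% of all genes) and for 21 members in *Snx14*-KO mice (9 above and 12 below, against 60.6%).

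Next, the members were compared between genotypes in each tissue, which asks whether the loss of *Snx14* was accompanied by a change in the other ataxia genes at 1 month. In cerebellum none of the 35 members was called by edgeR, where 0.00549% of the 18201 genes tested were called, and that single gene was *Snx14*. DESeq2 called none of the members either, where it called 0.919% of 17847 genes. At an unadjusted edgeR p under 0.05 there were 2 members, both lower in *Snx14*-KO cerebellum, against 8.15% of all genes. The log2 fold changes lay between -0.29 and 0.23, the median was -0.022 beside -0.00062 over all genes, and the median absolute value was 0.058 beside 0.10. For 32 of 35 members the 95% interval lay wholly between -0.50 and 0.50. The lowest bound was -0.54 and the highest 0.53. These intervals are for bulk tissue. The paper states that Purkinje cells are a small part of the cerebellum, so changes in them may add only small fold changes to bulk data.

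The 3 members with the smallest p in cerebellum were *Fgf14*, *Syne1* and *Polg*. *Fgf14* stood at 61.2, 63.6 and 57.99 CPM in WT cerebellum and 48.1, 52.7 and 53.7 CPM in *Snx14*-KO cerebellum. All *Snx14*-KO libraries lay below all WT libraries. The log2 fold change was -0.23 ± 0.074 (SE, interval -0.40 to -0.060, edgeR adjusted p = 0.428), so the difference did not pass the correction. *Syne1* stood at 454, 424 and 551 CPM in WT and 378, 413 and 367 CPM in *Snx14*-KO cerebellum, again without overlap, and WT replicate 3 was the highest library. Its log2 fold change was -0.29 ± 0.10 (SE, edgeR adjusted p = 0.479), and -0.17 without WT cerebellum replicate 3. *Polg* stood at 47.2, 45.8 and 47.8 CPM in WT and 44.7, 40.6 and 40.4 CPM in *Snx14*-KO cerebellum, -0.15 ± 0.070 on the log2 scale (SE, edgeR adjusted p = 0.658). Its groups did not overlap but lay close together.

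Including these 3, the groups did not overlap for 5 members in cerebellum, against 12.5% of all genes. *Tbp* was the fourth below (44.3, 41.5 and 41.9 CPM in WT and 38.8, 39.5 and 40.9 CPM in *Snx14*-KO) and *Atxn10* lay above (174, 173 and 164 CPM in WT and 183, 176 and 189 CPM in *Snx14*-KO). Neither passed the test (-0.083 and 0.11 on the log2 scale). No marker of any listed cell type was called by edgeR between these libraries, and DESeq2 called 6 of the 8 meningeal fibroblast markers and *Sst* higher and the granule cell marker *Fat2* lower. The part of the marker levels that follow in the values above was not tested. Granule cell markers summed to 2595 to 3004 CPM in WT and 2113 to 2708 CPM in *Snx14*-KO cerebellum (3 of 6 lower and none higher at an unadjusted p under 0.05). Purkinje cell markers summed to 10182 to 11230.3 and 7837 to 10266 CPM (1 of 7 lower). Meningeal fibroblast markers summed to 153 to 322 and 411 to 439.7 CPM (6 of 8 higher), and Bergmann glia and astrocyte markers to 3398 to 3804 and 3692 to 4561 CPM (3 of 6 higher). Microglia markers summed to 106 to 131 and 131 to 259 CPM (3 of 6 higher), with the highest sum in *Snx14*-KO replicate 3. That library also had the highest level of the astrocyte gene *Gfap* (373, 442 and 912 CPM in *Snx14*-KO against 276, 309 and 293 CPM in WT). *Snx14*-KO replicates 1 and 3 stood apart in the interneuron peptide gene *Sst*, which read 2.22, 2.71 and 2.36 CPM in WT and 34.3, 3.198 and 35.7 CPM in *Snx14*-KO cerebellum. *Gfap* and *Sst* were singled out after their values were seen. Each of the other marker lists had at most 1 gene at an unadjusted p under 0.05. With *Snx14*-KO replicates 1 and 3 left out together, an alternative chosen after seeing the data that leaves 1 *Snx14*-KO library and assumes it varies like the WT libraries, no member was called either, and *Fgf14*, *Syne1* and *Polg* had log2 fold changes of -0.1996, -0.198 and -0.199.

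In cortex the outcome was the same: no member was called by edgeR, where *Snx14* alone made up the 0.00548% of 18255 genes, and none by DESeq2, where 0.0597% of 15065 genes were called. There were 2 members at an unadjusted edgeR p under 0.05, 1 in each direction, against 4.5% of all genes. All 35 intervals lay between -0.50 and 0.50, the lowest bound being -0.46 and the highest 0.42. The median log2 fold change was -0.0097 beside 8.2e-05 over all genes, and the median absolute value was 0.045 beside 0.088.

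Smallest in p were *Ccdc88c*, *Spg7* and *Ano10*. *Ccdc88c* stood at 31.2, 27.2 and 29.4 CPM in WT cortex and 23.6, 26.2 and 24.7 CPM in *Snx14*-KO cortex. The *Snx14*-KO libraries were all lower, at -0.24 ± 0.093 on the log2 scale (SE, edgeR adjusted p = 0.996). *Spg7* stood at 52.3, 50.2 and 45.4 CPM in WT and 59.02, 52.6 and 56.9 CPM in *Snx14*-KO cortex, where the groups only just failed to meet. It had 0.19 ± 0.080 on the log2 scale (SE, edgeR adjusted p = 0.996). *Ano10* stood at 21.6, 17.98 and 18.8 CPM in WT and 23.8, 20.7 and 21.8 CPM in *Snx14*-KO cortex, with overlap, and had 0.18 ± 0.11 (SE, edgeR adjusted p = 0.996).

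Groups did not overlap in cortex for 6 members, against 9.24% of all genes: *Spg7*, *Atxn10*, *Wwox* and *Rubcn* above, *Ccdc88c* and *Tdp2* below. *Atxn10* was thus above WT in every *Snx14*-KO library of both tissues, with 215, 213 and 201 CPM in WT and 217, 224 and 229 CPM in *Snx14*-KO cortex. Its log2 fold changes were 0.11 ± 0.063 in cerebellum and 0.091 ± 0.065 in cortex (SE, edgeR adjusted p = 0.751 and 0.996), neither past the test. The share of all genes above WT in both tissues was not counted, and the tissues carried the same mouse numbers, so they are not separate repeats. *Tdp2* read 17.8, 20.02 and 17.8 CPM in WT and 17.6, 14.4 and 16.9 CPM in *Snx14*-KO cortex, *Wwox* 20.8, 19.6 and 19.5 and 21.7, 21.5 and 22.3 CPM, and *Rubcn* 83.4, 81.4 and 84.6 and 86.8, 85.5 and 89.4 CPM. In each case the gap between the groups was smaller than the range of at least one of them. No cell type marker was called in these libraries by edgeR or DESeq2. Oligodendrocyte markers summed to 7516 to 7775 CPM in WT and 5352 to 7644 CPM in *Snx14*-KO cortex (4 of 6 lower at an unadjusted p under 0.05). Meningeal fibroblast markers summed to 80.5 to 127 and 106 to 337 CPM (4 of 8 higher), and astrocyte markers to 1088 to 1252 and 1163 to 2195 CPM (2 of 6 higher). *Snx14*-KO cortex replicate 2 held the lowest oligodendrocyte sum and the highest meningeal and astrocyte sums, and *Gfap* read 198, 147 and 174 CPM in WT and 201, 1047 and 262 CPM in *Snx14*-KO cortex. Each of the other marker lists had at most 1 gene at that p. Without *Snx14*-KO cortex replicate 2 no member was called, and *Ccdc88c*, *Spg7* and *Ano10* had log2 fold changes of -0.28, 0.23 and 0.22. The part of these markers in the values was not tested.

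The members that differ between the regions were followed in the same way. In cerebellum *Ttpa* had a log2 fold change of 0.23 with an interval of -0.066 to 0.53, the widest upward reach of the 35, and in cortex it had -0.083 (-0.46 to 0.29). It was also among the members with the fewest counts. *Ppp2r2b* had 0.14 (-0.070 to 0.36) in cerebellum and -0.045 (-0.19 to 0.10) in cortex. *Cacna1a* had -0.12 (-0.31 to 0.067) in cerebellum and 0.0069 (-0.16 to 0.17) in cortex. A loss or gain of its message in the bulk tissue by the 0.50 limit lay outside both intervals, which do not cover a change confined to Purkinje cells. *Atxn1* had -0.12 (-0.29 to 0.059) and 0.027 (-0.12 to 0.17) in the same order. *Vldlr* had -0.082 and 0.11, *Sil1* -0.058 and -0.0017, *Tdp2* -0.0034 and -0.19, *Atxn3* 0.014 and -0.0097, *Wdr73* -0.073 and 0.018, and *Wwox* 0.10 and 0.13. None of these passed in either tissue.

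By role the values were equally small. The 6 mitochondrial members ranged from -0.15 (*Polg*) to 0.033 (*Spg7*) in cerebellum, and in cortex they ranged from -0.074 (*Polg*) to 0.19 (*Spg7*). The 4 DNA repair members ranged from -0.17 (*Atm*) to 0.041 (*Mre11a*) in cerebellum, and their cortex values from -0.19 (*Tdp2*) to -0.024 (*Atm*). The 5 secretory and protein quality members, *Stub1*, *Sil1*, *Pmm2*, *Gosr2* and *Rubcn*, ranged from -0.058 (*Sil1*) to -0.0070 (*Rubcn*) in cerebellum, and in cortex from -0.12 (*Pmm2*) to 0.070 (*Rubcn*). *Eef2*, the most abundant member, had 0.0086 (-0.16 to 0.17) in cerebellum and 0.010 (-0.14 to 0.16) in cortex. *Cwf19l1*, with the fewest counts of its group, reached -0.54 to 0.15 around -0.19 in cerebellum and held the lowest bound of all 35.

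**Figure D4:**
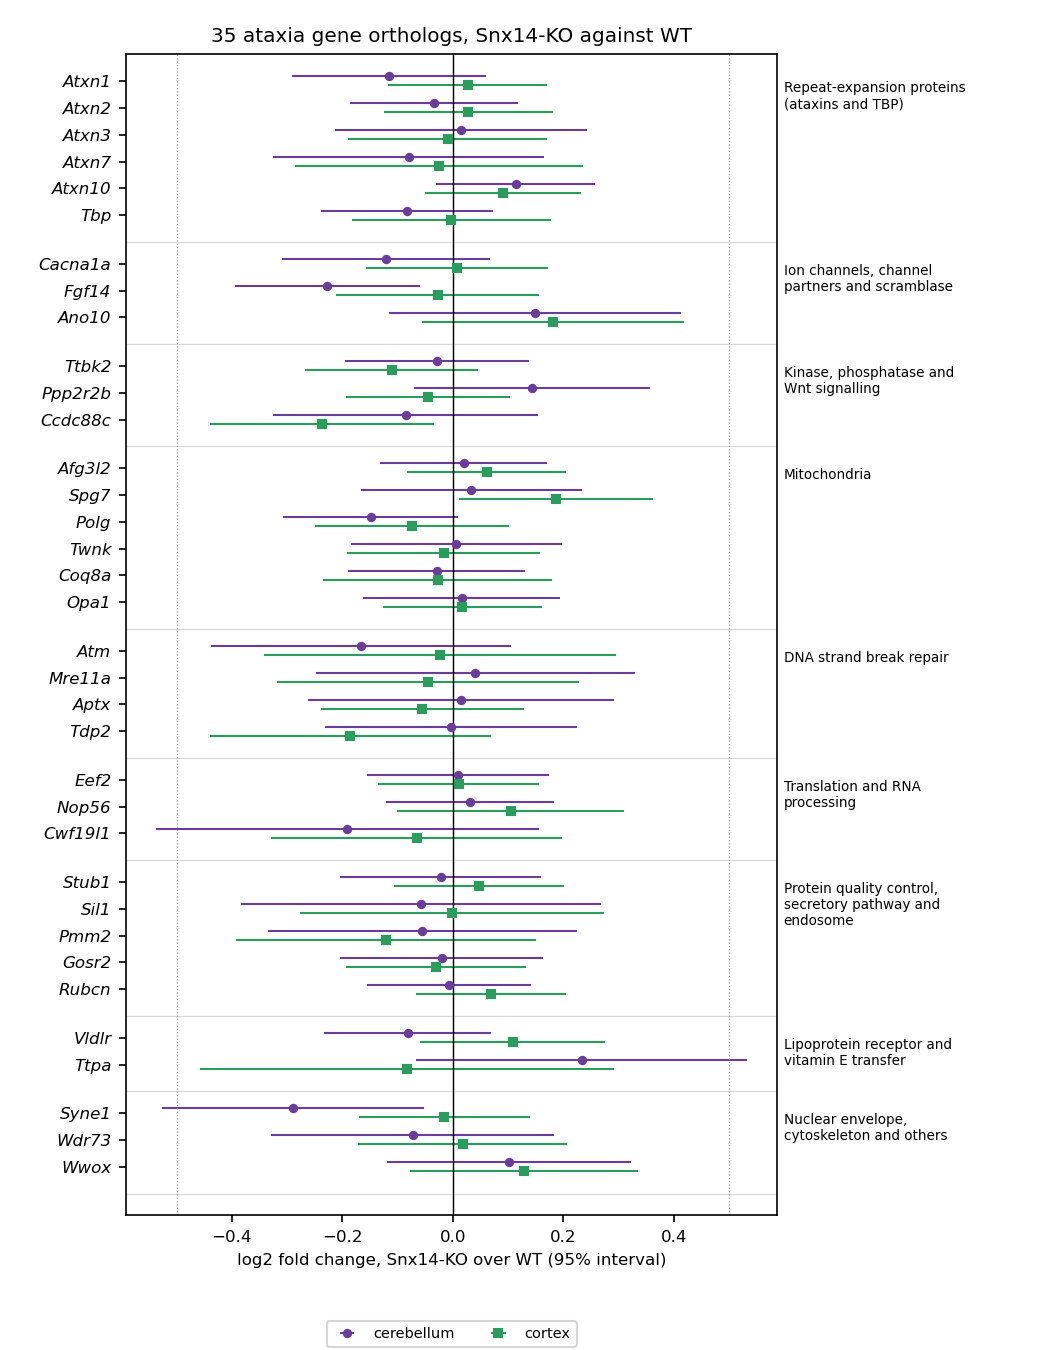
Log2 fold change of *Snx14*-KO over WT for the 35 members by role, in cerebellum (circles) and cortex (squares), with 95% intervals and dotted lines at 0.50 to either side of 0. All points lie between -0.29 (*Syne1*, cerebellum) and 0.23 (*Ttpa*, cerebellum), and 3 cerebellum intervals cross a dotted line.

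Whether the effect of the deletion differed between the tissues was tested with the interaction of tissue and genotype over all 12 libraries, which is also the test of whether the regional difference changed with genotype. No member was called by edgeR (0% of 19380 genes) or by DESeq2 (0.238% of 16368 genes), and 1 had an unadjusted edgeR p under 0.05, against 5.68% of all genes. That was *Syne1*, whose effect in cerebellum minus that in cortex was -0.29 ± 0.13 on the log2 scale (SE, edgeR adjusted p = 0.864). Without WT cerebellum replicate 3 the value was -0.17. *Syne1* read 429, 415 and 454 CPM in WT cortex and 391, 445 and 448 CPM in *Snx14*-KO cortex, where the genotypes overlapped. *Vldlr* followed with -0.20 ± 0.10 (edgeR adjusted p = 0.931) and *Fgf14* with -0.22 ± 0.12 (edgeR adjusted p = 0.958). *Fgf14* in cortex stood at 55.9, 63.6 and 56.7 CPM in WT and 59.3, 52.01 and 61.6 CPM in *Snx14*-KO, with overlap.

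For reference, 41 further mouse orthologs of ataxia genes that are not among the 35 were followed in the same fits. Of the 40 tested between the regions in WT, 20 were higher in cerebellum and 5 lower, 62.5% against the 40.4% of all genes, and their median log2 fold change was 0.52. The 2 with the largest excess in cerebellum were *Fat2*, a giant cadherin of granule cells (8.61), and *Car8*, a partner of the inositol trisphosphate receptor (6.40). Lower in cerebellum were the opioid peptide precursor *Pdyn* (-6.68), the lysosomal nuclease *Pld3* (-3.33), the peptidase *Mme* (-2.06), the flippase *Atp8a2* (-0.57) and the lysophospholipid hydrolase *Abhd12* (-0.51). In *Snx14*-KO mice 17 were higher and 5 lower, 55% against the 37.9% of all genes. There *Pdyn* had -4.05, with 2.25, 0.331 and 2.17 CPM in *Snx14*-KO cerebellum against 0.334, 0.346 and 0.161 CPM in WT cerebellum, so that replicates 1 and 3 stood apart as they did for *Sst*. Some of these genes, *Car8*, *Fat2*, *Itpr1* and *Slc1a3*, were also among the cell type markers used here. Whether this list differs from the 35 members was not tested. Between genotypes edgeR called none of these genes in either tissue, and 4 of 39 in cerebellum and 1 of 40 in cortex had an unadjusted p under 0.05, against 8.15% and 4.5% of all genes. DESeq2 called 1 of 39, *Fat2*, lower in *Snx14*-KO cerebellum, where it called 0.919% of all genes. Its DESeq2 log2 fold change was -0.51, and edgeR gave -0.50 (adjusted p = 0.145) for 367, 334 and 350.4 CPM in WT and 245, 278 and 216 CPM in *Snx14*-KO.

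**Figure D5:**
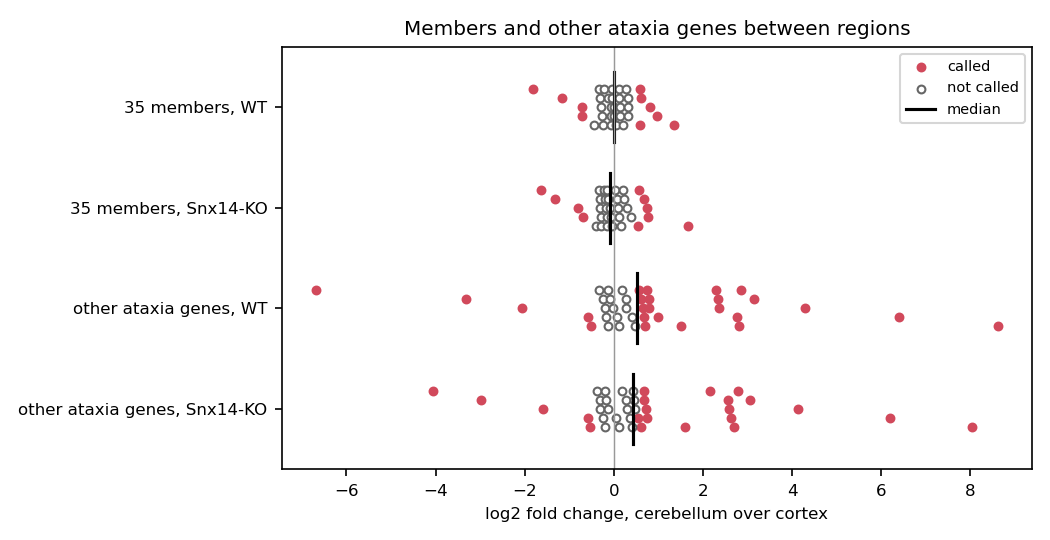
Log2 fold change of cerebellum over cortex for each of the 35 members and of the 40 other ataxia gene orthologs tested, in WT and in *Snx14*-KO mice, with called genes filled, genes not called open and the median as a black line. The members lie within -1.81 and 1.65, and the other ataxia genes reach from -6.68 to 8.61.

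Overlapping genes limit some members, since the counting assigned a read pair to every gene it met and ignored strand. More than 5% of exon bases were shared with another gene in 9 members, led by *Stub1* (42.3%), *Ttbk2* (29.9%), *Tbp* (19.02%) and *Twnk* (12.6%, with *Mrpl43*). *Sil1* was the only one of the 10 members called between the regions in this set, with 5.704% shared. Of the genes it overlaps, *AC147989.3* had log2 fold changes of 0.91 in WT and 0.83 in *Snx14*-KO mice, also higher in cerebellum. Its mean level was low, 1.84 CPM in WT cerebellum and 0.983 CPM in WT cortex, and *AC147989.1* was not tested. The other 26 members shared 5% of their bases or less, and *Ttpa*, *Vldlr*, *Tdp2*, *Atxn3*, *Wdr73* and *Wwox* shared none.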

How the data were processed

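RNA was measured in 12 bulk libraries (3 per group, n = 3). Per the study's methods the authors mapped reads with STAR, and per the file headers they counted read pairs per gene with featureCounts (Subread 2.0.1) on GRCm38, assigning a pair to every overlapping gene and ignoring strand, and deposited raw counts. Rows that are not genes of the GENCODE annotation (26345 of 81881, at most 0.0632% of counts) were left out. The 35 members and all lists were chosen with earlier results of these data known. Counts were tested with edgeR 4.0.16 (R 4.3.3, filterByExpr, TMM, glmQLFit and glmQLFTest, two-sided, Benjamini-Hochberg over all genes tested), each comparison on its own libraries and the interaction on all 12. Called means adjusted p under 0.05 and absolute log2 fold change over 0.50, the study's thresholds. DESeq2 1.42.0, other scaling, no filter, robust dispersions, a replicate block, 1 joint fit and leaving out each library were the alternatives. Fits were also run on simulated counts with known changes, and the share of those changes recovered is not reported here. Statistics are given per library for genes called in the WT region comparison, for the 3 smallest p in the others and for the 3 highest and lowest levels in WT cerebellum. Other members are given as log2 fold changes. Some genes outside the 35 are not reported here.

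The labels give cerebellum and cortex of a genotype the same mouse numbers, which were taken as the same animals, and deviations of same-numbered libraries correlated at 0.11, 0.16 and 0.073 in WT and 0.34, 0.018 and 0.10 in *Snx14*-KO. WT and *Snx14*-KO numbers name different mice. No 2 libraries of a group agreed within sampling noise (chi-square per gene at least 6.00). Each genotype was 3 mice, so p-values reflect the spread between these animals. Glutamine runs were read from the longest coding sequence of each gene.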

Additional observations from a re-analysis of the deposited data

How the results depend on the processing

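The 10 members called between the regions in WT and the 10 in *Snx14*-KO mice remained 10 by count under DESeq2, RLE size factors, no filter on low counts, robust dispersions, the fit of all 12 libraries and the replicate block that pairs the mice (6 higher and 4 lower each time). With no limit on the fold change the counts were 20 in WT and 19 in *Snx14*-KO mice. Leaving out 1 library gave 9 to 11 in WT and 9 to 10 in *Snx14*-KO mice. Leaving out *Snx14*-KO cerebellum replicates 1 and 3 together, chosen after seeing the data, gave 9 in *Snx14*-KO mice, with 1 cerebellum library left and the spread taken from the cortex libraries. Between genotypes, and for the interaction, the count of members called was 0 under every alternative. The replicate block changed no call of the 35 members in any comparison. In the comparisons between genotypes, however, it joined different mice that only share a number, so there it is no check of pairing. With a library left out, the lowest adjusted p was 0.295 in cerebellum, 0.794 in cortex and 0.486 for the interaction. With a library left out, *Snx14* ranged from -2.60 to -2.54 in cerebellum, and in cortex from -2.84 to -2.76. The median over members, -0.0069 between the regions in WT, then ranged from -0.021 to 0.035. Between genotypes its range was -0.046 to -0.019 in cerebellum (-0.022 with all libraries), and in cortex -0.020 to 0.017 (-0.0097 with all libraries). It became positive in WT without cerebellum replicates 1 or 3 or cortex replicates 1 or 3, and in the cortex comparison without WT replicates 2 or 3. For the genes given in full, 374 values under an alternative kept their direction and side of the threshold, and 5 lay under the fold limit (*Sil1* in 3 and *Wwox* in 2). No direction reversed. The 95% intervals reached 0.37 to either side of the estimate in cortex and 0.35 in cerebellum, with medians of 0.18 and 0.19.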
